A study of Mus musculus with 12 samples.

Results

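The elastic fibre and microfibril genes described here are 10 genes, Eln, Fbn1, Fbn2, Fbln1, Fbln2, Fbln5, Efemp1, Efemp2, Mfap4 and Mfap5, taken by gene name from a table of 40760 genes. They were read in Cd140a+ (Pdgfra+) mesenchymal cells sorted by flow cytometry from the lungs of adult male mice of C57BL/6 background. There were 3 libraries in each of 4 groups: wild-type mice given vehicle (WT vehicle), Pear1-/- mice given vehicle (Pear1-/- vehicle), wild-type mice given bleomycin (WT bleo) and Pear1-/- mice given bleomycin (Pear1-/- bleo). Bleomycin is a DNA-damaging drug whose delivery to the airways injures the lung and is followed by scarring. The Pear1-/- mice carry a knockout-first allele in every cell, not in fibroblasts alone, and Pear1 encodes a surface receptor. The dose and day behind these libraries and the number of mice pooled in a library are not given in the sources used here, so p-values measure only the spread between libraries. The question was how genotype and bleo each moved the genes of the elastic fibre, and whether the response to bleo differed by genotype.

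An elastic fibre is a core of cross-linked elastin laid down on a scaffold of microfibrils, and it gives the alveolar wall and the airways their recoil. Elastin is encoded by Eln, and the fibrillins encoded by Fbn1 and Fbn2 polymerize into the microfibrils. Microfibril-associated proteins (Mfap4, Mfap5) bind fibrillin, and the fibulins (Fbln1, Fbln2, Fbln5, Efemp1, Efemp2) bind tropoelastin, fibrillin or basement membrane. In adult lung most elastin is stable and little is newly made, whereas fibroblasts of a scarring lung can make it again.

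Total counts were between 6702948 and 10447101 per library, and all 10 genes passed edgeR's filter on low counts, which kept 17418 genes. Values below are normalized counts, that is, counts scaled by the size factor given to each library at deposit. The 3 values of a group are listed from replicate 1 to replicate 3. Log2 fold changes, standard errors (SE) and adjusted p are from edgeR's quasi-likelihood test with TMM scaling, Benjamini-Hochberg adjusted over the 17418 genes. WT vehicle replicate 2 stood apart from the other WT vehicle libraries, with a chi-square of counts per degree of freedom (near 1 for counting noise) of 25.2 and 26.0 against them and between 1.81 and 2.92 against the Pear1-/- vehicle libraries. Comparisons of the 10 genes that use WT vehicle are therefore also given without it. On the same measure, pairs of libraries within a bleo group stood between 1.37 and 1.51, near counting noise. WT vehicle replicates 1 and 3 stood at 1.68, and Pear1-/- vehicle replicates 1 and 2 at 1.48. Pear1-/- vehicle replicate 3 stood at 4.86 and 5.46 against the others of its group. Whether libraries of a group came from separate mice was not tested, so small p-values do not show replication across mice. Pear1 itself stood at 547 ± 28.8 normalized counts with WT vehicle (SD, n = 3) and at 519.7 ± 24.0 with the label Pear1-/- vehicle (adjusted p = 0.490), and it was higher with the label Pear1-/- bleo than with WT bleo (357 ± 14.2 against 254 ± 14.0). The difference after bleo passed (log2 0.48, adjusted p = 7.54e-05), and the libraries did not overlap. Counts of the targeted gene thus overlapped between the labels after vehicle and were higher, not lower, with the label Pear1-/- after bleo. They are totals over the whole gene and were not tested by exon, and genotypes are the deposited labels. Pdgfra, which defines the sort, had 4565 ± 325 normalized counts for WT vehicle, 4165 ± 39.1 for Pear1-/- vehicle, 1360.1 ± 29.9 for WT bleo and 2392 ± 18.8 for Pear1-/- bleo. No gene of the fibroblast marker list was at or under 3 counts throughout a group, and none of the leukocyte list was, Ptprc (CD45) included. Ptprc had 3303 ± 479 normalized counts for WT vehicle and 3818 ± 263 for Pear1-/- vehicle. After bleo it had 7616 ± 97.8 for WT bleo and 3365 ± 109 for Pear1-/- bleo, more than Pdgfra in both groups.

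In GENCODE M21 on build GRCm38, Eln lies at chr5:134702593-134747323 and Fbn1 at chr2:125300594-125507993, both on the minus strand. Fbln1 lies at chr15:85205949-85286535, Fbln2 at chr6:91212455-91272540, Efemp1 at chr11:28853204-28926743 and Efemp2 at chr19:5473954-5482517, all on the plus strand. Fbln5 lies at chr12:101746565-101819055 on the minus strand, Mfap4 at chr11:61485431-61488900 and Mfap5 at chr6:122505845-122529290 on the plus strand. The exons of 5 of the 10 genes overlap those of a gene on the other strand, from which reads cannot be told apart where strand is not recorded. The overlap took 20.1% of the exonic bases of Fbn1 (Gm9913, 24 counts over the 12 libraries against 22737 for Fbn1) and under 5% of those of Eln, Fbn2, Mfap4 and Efemp2. The gene opposite Efemp2, Mus81, had 2176 counts against 11704 for Efemp2, and the gene opposite Mfap4, Mapk7, had 3394 against 125577, while those opposite Eln and Fbn2 had 23 and 7.

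Upstream sequence is shown for Efemp1 and Fbln1, whose counts fell together after bleo, and for Efemp2, the close relative of Efemp1 whose counts did not. The stretches are the 250 bases before a RefSeq transcript start (GRCm38.p6), 5′ to 3′ on the plus strand, at chr11:28852955-28853204 for Efemp1, chr15:85205699-85205948 for Fbln1 and chr19:5473696-5473945 for Efemp2. Capitals mark matches to any of 5 motifs searched on both strands, TGANTCA among them, which is the core of sites bound by the factor AP-1. The GC box was read as GGGCGG, to which factors of the Sp family bind. The TATA box, from which many transcripts start at a fixed distance, was read as TATAAA. Sites of the TEAD family, through which the Yap and Taz proteins act, were read as GGAATG. The remaining motif was the box named CCAAT.
Efemp1: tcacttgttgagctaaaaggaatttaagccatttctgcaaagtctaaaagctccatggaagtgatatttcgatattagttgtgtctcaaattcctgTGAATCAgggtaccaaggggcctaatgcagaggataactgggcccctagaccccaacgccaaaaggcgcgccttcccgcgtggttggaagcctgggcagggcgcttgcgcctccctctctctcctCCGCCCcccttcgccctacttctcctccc
Fbln1: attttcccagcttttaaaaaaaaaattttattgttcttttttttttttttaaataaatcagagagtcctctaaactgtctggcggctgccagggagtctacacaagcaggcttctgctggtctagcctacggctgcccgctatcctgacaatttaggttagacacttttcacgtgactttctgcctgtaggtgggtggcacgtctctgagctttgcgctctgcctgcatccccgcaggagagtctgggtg
Efemp2: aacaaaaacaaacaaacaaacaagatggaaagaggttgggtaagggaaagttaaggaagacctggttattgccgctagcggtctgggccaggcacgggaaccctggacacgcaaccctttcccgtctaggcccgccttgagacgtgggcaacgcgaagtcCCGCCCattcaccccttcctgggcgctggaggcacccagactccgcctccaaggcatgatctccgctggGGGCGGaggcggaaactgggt
The Efemp1 stretch held the AP-1 type site, whose searched pattern is the same on both strands, from 154 to 148 bases before the start and a GC box on the other strand from 29 to 24. The Fbln1 stretch held none of the 5 motifs, and that of Efemp2 held a GC box from 90 to 85 and from 21 to 16 bases before the start. Of all 32851 promoter stretches of this length, 6.75% held the AP-1 type site, 32.7% the GC box, 12.4% the TATA box, 12.6% the TEAD type site and 33.8% the CCAAT box. Fbln1 has a further RefSeq start and Efemp2 further ones, and the stretches before these held GC boxes. RefSeq starts were given for 6 of the 10 genes (Fbn1, Fbln1, Fbln2, Fbln5, Efemp1 and Efemp2).

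Levels of different genes were compared as CPM per kilobase of exon (CPM per kb, with TMM library sizes). Mfap4 was the most abundant of the 10 genes in every group, at 636 ± 24.4 CPM per kb (SD, n = 3) for WT vehicle, 595 ± 25.7 for Pear1-/- vehicle, 427 ± 2.93 for WT bleo and 760.5 ± 14.4 for Pear1-/- bleo. Fbn2, a fibrillin best known from development, was the lowest in every group, between 0.108 ± 0.0168 in Pear1-/- vehicle and 1.35 ± 0.117 in Pear1-/- bleo. In both vehicle groups Efemp1 and Fbln1 came after Mfap4, at 261 ± 13.02 and 190 ± 29.4 CPM per kb in WT vehicle. After bleo Eln and Mfap5 took those places, at 129 ± 3.02 and 60.7 ± 0.746 in WT bleo and at 374 ± 4.25 and 107 ± 3.11 in Pear1-/- bleo. Neighbours in the order overlapped in their libraries only for Eln and Mfap5 in Pear1-/- vehicle (84.0 ± 3.12 and 81.4 ± 1.86) and for Fbln1 and Efemp1 in Pear1-/- bleo (31.1 ± 0.551 and 30.2 ± 1.18).

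The 10 genes summed to 1361 ± 37.8 CPM per kb for WT vehicle, 1373 ± 59.4 for Pear1-/- vehicle, 787 ± 7.27 for WT bleo and 1445 ± 21.6 for Pear1-/- bleo (SD, n = 3). WT bleo lay below the other groups. Efemp1 and Fbln1 made 19.2% ± 0.592 and 14.0% ± 1.94 of the sum in WT vehicle, and 2.09% ± 0.0893 and 2.15% ± 0.0691 in Pear1-/- bleo. Over the same groups the share of Eln went from 7.05% ± 0.943 to 25.9% ± 0.0915, with 16.4% ± 0.247 in WT bleo.

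**Figure D1:**
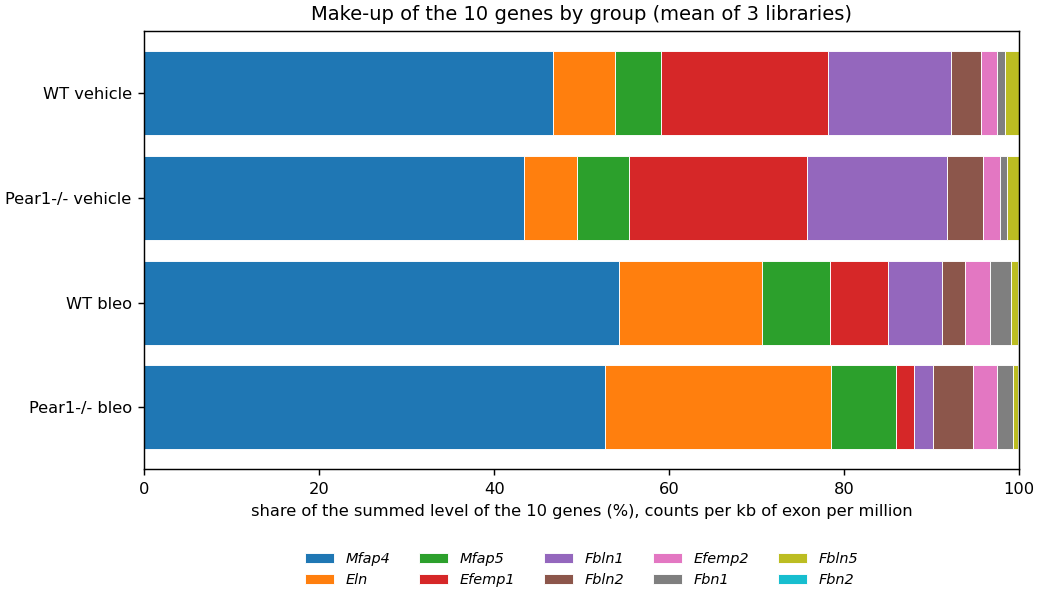
Share of each of the 10 genes in their summed level (percent of summed CPM per kb of exon, mean of 3 libraries), one bar per group. Efemp1 (red) and Fbln1 (purple) are wide in both vehicle groups and narrow in Pear1-/- bleo, where the share of Eln (orange) is 25.9%; Fbn2 is too small to be seen.

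Between WT bleo and WT vehicle, 2 of the 10 genes were higher (Eln and Fbn1) and 6 lower (Fbln1, Fbln2, Fbln5, Efemp1, Mfap4 and Mfap5) at an adjusted p under 0.05, against 67.9% of all genes called in either direction, 31.4% higher and 36.5% lower. Fbn2 and Efemp2 did not pass. Without WT vehicle replicate 2 the same 8 genes passed in the same directions, against 72.7% of all genes called in that fit, 33.9% higher and 38.7% lower, and the values moved by at most 0.13 on the log2 scale except that of Fbn2. With a fold over 2 added, 4 genes (Fbln1, Fbln2, Fbln5 and Efemp1) were lower, against 33.8% of all genes past both criteria, 10.5% higher and 23.3% lower. The libraries did not overlap for 8 of the 10, and for 68.7% of all genes. The median log2 fold change of the 10 was -0.40, beside -0.07 over all genes. Between Pear1-/- bleo and Pear1-/- vehicle all 10 passed, 7 higher and 3 lower (Fbln1, Fbln5 and Efemp1), against 62.2% of all genes, 29.1% higher and 33.1% lower, with medians of 0.37 and -0.05. With the fold, 3 were higher (Eln, Fbn1 and Fbn2) and 3 lower, against 27.7% of all genes, 8.37% higher and 19.3% lower, and the libraries did not overlap for any of the 10, which was so for 70.9% of all genes. Fbln1, Fbln5 and Efemp1 were thus lower and Eln and Fbn1 higher after bleo in both genotypes. Mfap4, Mfap5 and Fbln2 were lower after bleo in WT and higher after bleo in Pear1-/-, the call of Fbln2 in Pear1-/- resting on single libraries.

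Between Pear1-/- bleo and WT bleo, 8 of the 10 genes were higher and 2 lower (Fbln1 and Efemp1), against 46.1% of all genes called, 22.1% higher and 24% lower. The libraries of the 2 groups did not overlap for any of the 10, which was so for 62.9% of all genes. The median of the 10 was 0.79 and that of all genes -0.01. Only Eln, Fbn2 and Fbln2 also passed a fold of 2, all 3 higher, which with the adjusted p took 15% of all genes, 6.22% higher and 8.8% lower. This comparison shares the WT bleo libraries with the comparison in WT and the Pear1-/- bleo libraries with the comparison in Pear1-/-, so the values are not independent.

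**Figure D2:**
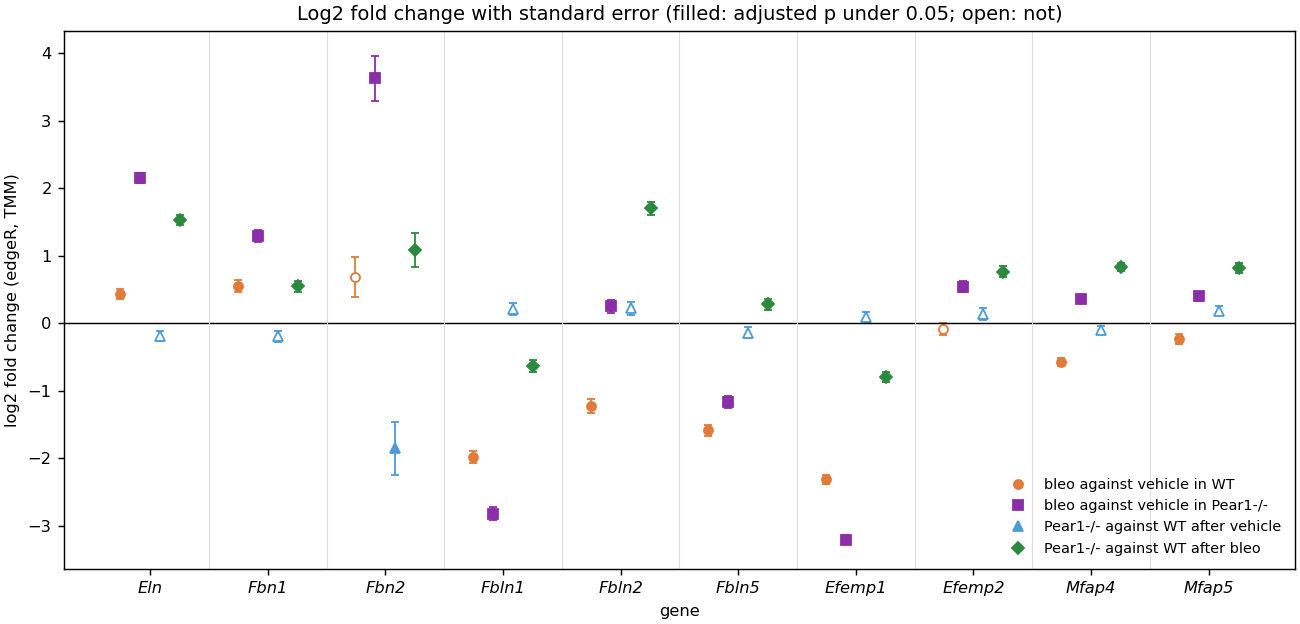
Log2 fold change (edgeR, TMM; bars are SE) of each of the 10 genes in 4 comparisons, with filled symbols for an adjusted p under 0.05 and open symbols otherwise. Fbln1 and Efemp1 lie below 0 in both bleo comparisons (orange and purple) and in the comparison of genotypes after bleo (green), where the other 8 genes lie above 0; after vehicle (blue) only Fbn2 is filled.

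Whether the response to bleo differed by genotype was tested with the interaction term. All 10 genes passed, 8 with a more positive change in Pear1-/- and 2 (Fbln1 and Efemp1) with a larger fall, against 37.1% of all genes called, 17.8% higher and 19.3% lower. Eln, Fbn2 and Fbln2 exceeded a fold of 2, against 15.5% of all genes, 8.53% higher and 6.98% lower. The median was 0.69 for the 10 and -0.0012 for all genes. Without WT vehicle replicate 2 all 10 still passed in the same directions, against 50.3% of all genes called in that fit, 23.8% higher and 26.6% lower, and their interaction values moved by at most 0.13 on the log2 scale except that of Fbn2, which went from 2.95 to 3.38. The interaction of Fbln5 (0.42, adjusted p = 0.00941) failed without the low-count filter (0.33, adjusted p = 0.122).

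Leukocyte and fibroblast transcripts moved with these comparisons. Of all genes, 31.4% were higher and 36.5% lower after bleo in WT, and 29.1% and 33.1% in Pear1-/-. Between the bleo groups 22.1% of all genes were higher and 24% lower. Of 22 leukocyte markers, 15 were higher and 5 lower in WT bleo than in WT vehicle, and 17 were lower and 5 did not pass between Pear1-/- bleo and WT bleo. Their summed level was between 3748 and 6055 CPM for WT vehicle, 5906 and 6636 for Pear1-/- vehicle, 17644 and 17904 for WT bleo and 8399.6 and 8656 for Pear1-/- bleo. Of the 14 fibroblast markers, 12 were lower and 2 higher after bleo in WT (median log2 fold change -1.52), and 9 were lower and 4 higher in Pear1-/- (median -1.19). Their summed level was between 18713 and 20472 CPM in WT vehicle, 20258 and 21130 in Pear1-/- vehicle, 13215 and 13338 in WT bleo and 33344 and 34344 in Pear1-/- bleo. Between the bleo groups 6 of them were higher and 2 lower in Pear1-/-. Col1a1 alone, which is on that list, went from at most 42504 normalized counts in WT bleo to at least 138603 in Pear1-/- bleo. The 13 smooth muscle and pericyte markers summed to between 624 and 630 CPM in WT bleo and between 1625 and 1654 in Pear1-/- bleo, with 7 higher and 2 lower. Of the other lists, 8 mesothelial markers summed to between 35.7 and 38.4 CPM in WT bleo and between 61.3 and 62.9 in Pear1-/- bleo. Their sums were between 92.2 and 116 in WT vehicle and between 84.1 and 89.4 in Pear1-/- vehicle. The 12 epithelial markers summed to between 1891 and 1922 in WT bleo and between 818 and 832 in Pear1-/- bleo. These had stood higher after vehicle, between 4859 and 6876 in WT and between 6518 and 7571 in Pear1-/-. The 10 endothelial markers summed to between 306 and 319 CPM in WT bleo and between 312 and 335 in Pear1-/- bleo. After vehicle they summed to between 493 and 555 in WT and between 541 and 594 in Pear1-/-. The 5 erythroid markers that passed the filter summed to between 7.84 and 9.14 CPM in WT bleo and between 30.7 and 33.1 in Pear1-/- bleo. Calb2 (mesothelial) had at most 3 counts in every library outside WT vehicle, and no marker of the leukocyte, fibroblast, epithelial, endothelial or smooth muscle lists was that low in a whole group. The part of these shifts in the values of the 10 genes was not tested. In a sorted bulk sample, fewer cells of a type and less RNA per cell cannot be told apart.

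Eln, which encodes tropoelastin, rose after bleo in both genotypes and rose more in Pear1-/-. Its normalized counts were 7549, 5948 and 7170 for WT vehicle, 5993, 5882 and 6305 for Pear1-/- vehicle, 9316, 8975 and 9342 for WT bleo and 26676, 27184 and 26799 for Pear1-/- bleo. The 2 vehicle groups overlapped, WT bleo lay above both, and Pear1-/- bleo lay far above all other libraries. The log2 fold change after bleo was 0.43 in WT (SE 0.073, adjusted p = 4e-05) and 2.15 in Pear1-/- (SE 0.0759, adjusted p = 1.64e-14). Pear1-/- bleo exceeded WT bleo 2.89-fold (log2 1.53, SE 0.0744, adjusted p = 6.03e-12), and the interaction was 1.72 (SE 0.104, adjusted p = 6.18e-10). Without WT vehicle replicate 2 the change in WT was 0.33.

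**Figure D3:**
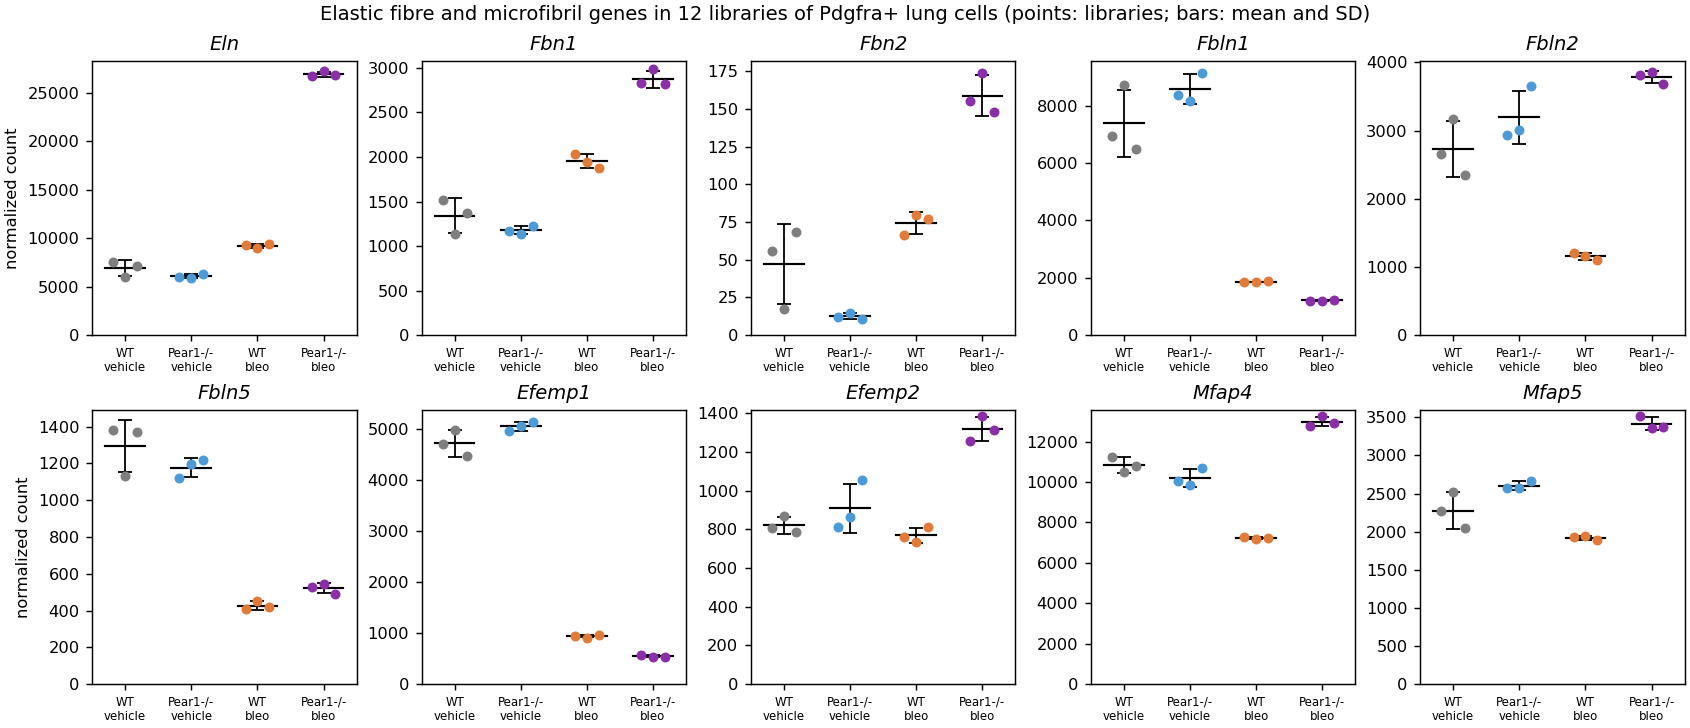
Normalized counts of the 10 genes in the 12 libraries, one panel per gene with its own axis from 0; points are libraries, the horizontal line the mean and the bar the SD of 3. Eln stands at 26676 to 27184 in Pear1-/- bleo against at most 9342 elsewhere, Fbln1 and Efemp1 are low in both bleo groups, and Fbln2, Efemp2, Mfap4 and Mfap5 are higher in Pear1-/- bleo than in WT bleo.

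The fibrillin Fbn1, the main microfibril protein of adult tissue, was also higher after bleo in both genotypes. It had 1522, 1136 and 1369 normalized counts for WT vehicle, 1164, 1138 and 1227 for Pear1-/- vehicle, 2032, 1947 and 1880.0 for WT bleo and 2825, 2984 and 2816 for Pear1-/- bleo. All bleo libraries lay above all vehicle libraries. The rise was 0.55 on the log2 scale in WT (SE 0.0869, adjusted p = 1.73e-05), 1.29 in Pear1-/- (SE 0.0876, adjusted p = 2.73e-10), and the difference between Pear1-/- bleo and WT bleo was 0.55 (SE 0.0861, adjusted p = 3.62e-05).

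Fbn2 was scarce, with between 10 and 202 counts in a library. Its SE was between 0.254 and 0.396 in the 4 comparisons of groups. It had 55.8, 17.2 and 68.7 normalized counts for WT vehicle, 12.3, 14.8 and 10.9 for Pear1-/- vehicle, 66.1, 79.5 and 76.9 for WT bleo and 155, 174 and 148 for Pear1-/- bleo. WT vehicle replicate 2 fell near the Pear1-/- vehicle libraries and the other WT vehicle libraries near WT bleo. In Pear1-/- its rise after bleo was 3.63 on the log2 scale, or 12.4-fold (SE 0.334, adjusted p = 1.41e-07). In WT the value was 0.68 (SE 0.298, adjusted p = 0.0529), which did not pass. Without WT vehicle replicate 2 it was 0.25 (adjusted p = 0.204). It passed without replicate 1 or replicate 3 of WT vehicle, at 0.83 and 1.08, and without the low-count filter (0.83, adjusted p = 7.3e-05). Between Pear1-/- bleo and WT bleo the difference was 1.09 (SE 0.254, adjusted p = 0.00235), which limma on log2(normalized value + 1) put at adjusted p = 0.0507.

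The microfibril-associated genes changed direction with genotype. Mfap4, which encodes a protein that binds both elastin and fibrillin, had 11259, 10487 and 10792 normalized counts for WT vehicle, 10042, 9871 and 10686 for Pear1-/- vehicle, 7292, 7188 and 7209 for WT bleo and 12788, 13254 and 12929 for Pear1-/- bleo. The vehicle groups overlapped, WT bleo lay below them and Pear1-/- bleo above them. Its log2 fold change after bleo was -0.57 in WT (SE 0.057, adjusted p = 4.85e-08) and 0.35 in Pear1-/- (SE 0.0568, adjusted p = 2.81e-05), with an interaction of 0.93 (SE 0.0805, adjusted p = 5.71e-08). Mfap5, the fibrillin-binding glycoprotein MAGP-2, had between 2041 and 2516 normalized counts for WT vehicle, 2569 and 2668 for Pear1-/- vehicle, 1889 and 1943 for WT bleo and 3362 and 3512 for Pear1-/- bleo. Its log2 fold change was -0.23 in WT (adjusted p = 0.00766), which failed when the filter was dropped (-0.11, adjusted p = 0.369), and 0.40 in Pear1-/- (adjusted p = 1.01e-04).

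Efemp1 (fibulin-3) and Fbln1 fell the most after bleo. Efemp1, a fibulin of fascia and basement membranes, had 4713, 4987 and 4474 normalized counts for WT vehicle, 4978, 5061 and 5147 for Pear1-/- vehicle, 951, 913 and 962 for WT bleo and 568, 537 and 534 for Pear1-/- bleo. Every bleo library lay far below every vehicle library. The fall was 4.98-fold in WT (log2 -2.32, SE 0.0679, adjusted p = 6.16e-16) and 9.23-fold in Pear1-/- (log2 -3.21, SE 0.0706, adjusted p = 3.94e-17). Pear1-/- bleo was 1.74-fold lower than WT bleo (log2 -0.80, SE 0.0669, adjusted p = 1.2e-08).

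Fbln1, found in basement membranes and within elastic fibres, had 6930, 8719 and 6504 normalized counts for WT vehicle, 8383, 8167 and 9155 for Pear1-/- vehicle, 1850, 1846 and 1869 for WT bleo and 1200, 1186 and 1238 for Pear1-/- bleo. WT vehicle replicate 2 again lay among the Pear1-/- vehicle libraries. The fall was 3.95-fold in WT (log2 -1.98, SE 0.0877, adjusted p = 2.91e-13) and 7.07-fold in Pear1-/- (log2 -2.82, SE 0.0906, adjusted p = 4.69e-15), and Pear1-/- bleo was 1.55-fold lower than WT bleo (log2 -0.63, SE 0.0859, adjusted p = 6.43e-06).

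Fbln2, which binds fibrillin and tropoelastin in vessel walls, differed most between genotypes after bleo. Its normalized counts were 2658, 3169 and 2354 for WT vehicle, 2931, 3003 and 3646 for Pear1-/- vehicle, 1209, 1157 and 1100.5 for WT bleo and 3822, 3859 and 3686 for Pear1-/- bleo. WT bleo stood below every other library. Bleo lowered it 2.34-fold in WT (log2 -1.23, SE 0.0982, adjusted p = 2.7e-09). In Pear1-/- it was higher after bleo by 0.25 on the log2 scale (SE 0.0958, adjusted p = 0.0292), but this call failed when replicate 1 or 2 of either Pear1-/- group was left out (adjusted p between 0.0776 and 0.136), with upper quartile scaling (0.0623) and with limma (0.0920). Pear1-/- bleo exceeded WT bleo 3.25-fold (log2 1.70, SE 0.099, adjusted p = 1.03e-10).

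Fbln5, which tethers tropoelastin to microfibrils and to cell-surface integrins, fell in both genotypes and fell less in Pear1-/-. It had between 1129 and 1383 normalized counts for WT vehicle, 1119 and 1217 for Pear1-/- vehicle, 407 and 455 for WT bleo and 493 and 547 for Pear1-/- bleo. The fall was 3.01-fold in WT (adjusted p = 6.25e-12) and 2.25-fold in Pear1-/- (adjusted p = 7.27e-10). Its difference between Pear1-/- bleo and WT bleo, 0.28 on the log2 scale (SE 0.0866, adjusted p = 0.0129), failed without WT bleo replicate 1 (adjusted p = 0.0672) and without Pear1-/- bleo replicate 2 (adjusted p = 0.0637).

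Efemp2 (fibulin-4), which brings lysyl oxidase to tropoelastin, had between 788 and 868 normalized counts for WT vehicle, 812 and 1052 for Pear1-/- vehicle, 734 and 811 for WT bleo and 1257 and 1382 for Pear1-/- bleo. In WT its value was -0.08 on the log2 scale (SE 0.0877, adjusted p = 0.417), and the groups overlapped. With upper quartile scaling it was called lower there (-0.23, adjusted p = 0.0193). It rose by 0.54 in Pear1-/- (SE 0.0862, adjusted p = 2.5e-05), and Pear1-/- bleo was 1.70-fold higher than WT bleo (log2 0.76, SE 0.0867, adjusted p = 6.6e-07).

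Between Pear1-/- vehicle and WT vehicle, 1 of the 10 genes was called, Fbn2, lower by 1.86 on the log2 scale (log2 -1.86, SE 0.396, adjusted p = 0.0296), against 7.24% of all genes called, 1.95% higher and 5.29% lower. It also exceeded a fold of 2, as did 3.32% of all genes, 0.0689% higher and 3.25% lower, and its libraries and those of Mfap5 did not overlap between the groups, as for 19.2% of all genes. The other 9 genes had values between -0.20 and 0.22 with adjusted p between 0.0905 and 0.317, and 3 of them were higher and 2 lower at an unadjusted p under 0.05, against 31.4% of all genes, 14.3% higher and 17.1% lower. Of the 17418 genes 340 were higher and 921 lower, a split that became 206 and 1436 with upper quartile scaling and, counted among the same 17418 genes, 2280 and 1314 when all 40760 genes were fitted without a filter on low counts. The call of Fbn2 was lost when any 1 of the other 5 vehicle libraries was left out (log2 between -1.99 and -1.46, adjusted p between 0.0822 and 0.168), where edgeR called 0 of the 17418 genes and between 2945 and 4536 had an unadjusted p under 0.05. Without WT vehicle replicate 2, 9 of the 10 genes were called, 4 higher (Fbln1, Fbln2, Efemp1 and Mfap5) and 5 lower (Eln, Fbn1, Fbn2, Fbln5 and Mfap4), against 46.3% of all genes, 22.8% higher and 23.5% lower. Their values then lay between -0.31 and 0.34 on the log2 scale, except -2.29 for Fbn2. The number of genes called between genotypes after vehicle therefore turned on single libraries, and most on WT vehicle replicate 2. Each of the 10 genes kept the sign of its value without that library.

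Because the Pdgfra counts differed between groups, the 10 genes were also set against the Pdgfra count of the same library, as a description with no test. Pdgfra was itself lower after bleo and its level per cell was not measured, so this scale is not a count per cell. In bleo, Mfap4, Mfap5 and Efemp2 were close between genotypes on this scale. Mfap4 had 5.32 ± 0.128 counts per Pdgfra count in WT bleo and 5.43 ± 0.142 in Pear1-/- bleo, Mfap5 had 1.41 ± 0.0509 and 1.43 ± 0.0308, and Efemp2 had 0.565 ± 0.0165 and 0.551 ± 0.0303 (SD, n = 3), and the libraries overlapped for all 3. Eln (6.77 ± 0.118 and 11.2 ± 0.199), Fbln2 (0.850 ± 0.0550 and 1.58 ± 0.0471) and Fbn2 (0.0546 ± 0.00523 and 0.0665 ± 0.00609) stayed higher in Pear1-/- bleo without overlap. Fbn1 and Fbln5 changed sign, with 1.44 ± 0.0807 and 1.202 ± 0.0493 for Fbn1 and 0.314 ± 0.0224 and 0.218 ± 0.0128 for Fbln5, and the deficits of Fbln1 (1.36 ± 0.0207 and 0.505 ± 0.00901) and Efemp1 (0.692 ± 0.0116 and 0.228 ± 0.00731) widened. The median of the 10 differences was -0.01 on this scale and 0.79 on the library scale.

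**Figure D4:**
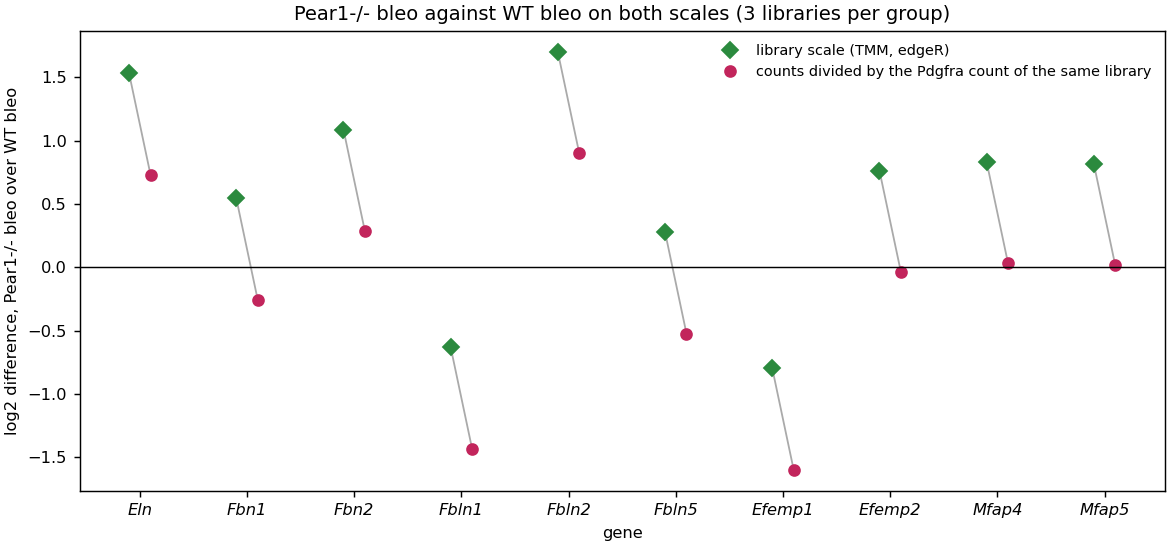
Log2 difference between Pear1-/- bleo and WT bleo for each of the 10 genes, on the library scale (green diamonds, edgeR) and after dividing by the Pdgfra count of the same library (red circles, difference of mean log2 ratios, no error drawn). Mfap4, Mfap5 and Efemp2 lie near 0 on the second scale, Eln, Fbn2 and Fbln2 above it, and Fbn1, Fbln1, Fbln5 and Efemp1 below it.

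On the same scale the response of WT to bleo also looked different. Only Efemp1 and Fbln1 were lower after bleo per Pdgfra count in WT (log2 -0.58 and -0.24, or -0.48 and -0.051 without WT vehicle replicate 2), and 8 of the 10 genes were higher, against 3 of 10 on the library scale. In Pear1-/- the signs were those of the library scale for all 10 genes, with Fbln5 at -0.37, Fbln1 at -2.02 and Efemp1 at -2.41.

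Ratios of counts within a library do not depend on library size. Elastin to Fbn1 was 5.14 ± 0.159 for WT vehicle, 5.15 ± 0.0143 for Pear1-/- vehicle, 4.72 ± 0.215 for WT bleo and 9.36 ± 0.217 for Pear1-/- bleo (SD, n = 3). Fbn2 to Fbn1 was 0.0340 ± 0.0176, 0.0108 ± 0.00208, 0.0381 ± 0.00482 and 0.0552 ± 0.00286 in the same order, and Mfap5 to Mfap4 was 0.210 ± 0.0264, 0.255 ± 0.00534, 0.266 ± 0.00424 and 0.263 ± 0.0107. Efemp1 to Efemp2 moved the most, from 5.76 ± 0.0914 in WT vehicle and 5.63 ± 0.655 in Pear1-/- vehicle to 1.23 ± 0.0356 in WT bleo and 0.416 ± 0.0326 in Pear1-/- bleo. The mean log2 change after bleo over both genotypes was -2.99, lower in 6 of 6 bleo libraries (exact permutation test within genotype, two-sided, p = 0.005, the smallest that 400 arrangements allow, adjusted p = 0.06 over 12 tests). Within bleo, a two-sided exact permutation test of 3 libraries against 3 cannot go below 0.1, which the ratios of Eln to Fbn1, Fbn2 to Fbn1 and Efemp1 to Efemp2 reached (adjusted p = 0.133). Mfap5 to Mfap4 differed by -0.02 on the log2 scale between genotypes after bleo (exact permutation test, p = 0.8, adjusted p = 0.96). None of the 12 tests passed after adjustment, with all libraries or without WT vehicle replicate 2. The tests between genotypes, within vehicle as within bleo, could not have passed with at most 3 libraries per group, so they decide nothing.

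**Figure D5:**
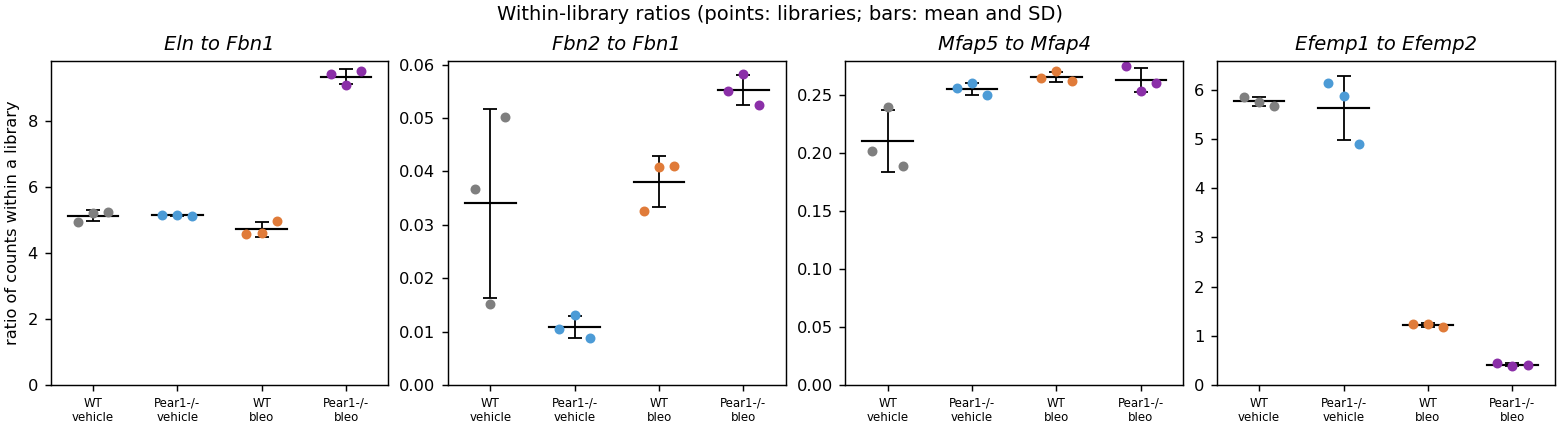
Ratio of the counts of 2 genes within each library, one panel per ratio with its own axis from 0; points are libraries, the line the mean and the bar the SD of 3. The 3 libraries of Pear1-/- bleo stand at 9.11 to 9.52 for Eln to Fbn1 and the other 9 libraries at 4.59 to 5.24, and Efemp1 to Efemp2 falls below 1 only in Pear1-/- bleo.

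The patterns over the 12 libraries were compared as the root mean square difference of log2 CPM, each gene centred on its own mean. Among the 45 pairs of the 10 genes, Efemp2 and Mfap5 were closest (0.12), followed by Mfap4 and Mfap5 (0.16), Efemp2 and Mfap4 (0.21) and Fbln1 and Efemp1 (0.21). Fbn2 and Efemp1 were farthest apart (2.65). Among the 5498 other genes whose mean log2 CPM reached 5, the nearest to Eln was the collagen gene Col1a1 (0.11) and the nearest to Fbn2 was Inhba (0.44), which encodes a subunit of activin. Fbln1 was nearest to Pi16 (0.13), Efemp1 to the laminin gene Lamc3 (0.14), Fbln2 to the myosin light chain gene Myl9 (0.13) and Efemp2 to Mgp (0.07). Fbn1 was nearest to Sfxn1 (0.09), Fbln5 to Cgnl1 (0.06), Mfap4 to Qsox1 (0.07) and Mfap5 to Rasl11b (0.05).

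Other genes of the pathway were read from 6 lists. Their counts stand beside 22.1% of all genes higher and 24% lower between the bleo groups. For the interaction 17.8% of all genes were higher and 19.3% lower, or 23.8% and 26.6% without WT vehicle replicate 2. All 5 lysyl oxidases, the enzymes that cross-link elastin and collagen, had a positive interaction, with a median of 1.13, and all 5 again without WT vehicle replicate 2, with a median of 1.21. After bleo, 4 of 5 were higher in Pear1-/- than in WT and 1 (Loxl4) did not pass. Lox had 1397 ± 128 normalized counts for WT vehicle, 1292 ± 71.1 for Pear1-/- vehicle, 1595 ± 37.2 for WT bleo and 5733 ± 174 for Pear1-/- bleo (SD, n = 3), a 3.56-fold difference between the bleo groups (log2 1.83, SE 0.0757, adjusted p = 7.66e-13). Loxl1, which binds Fbln5, was lower after bleo in WT (4406 ± 404 to 2301 ± 62.8 normalized counts, log2 -0.93, adjusted p = 1.19e-08, or -1.001 without WT vehicle replicate 2).

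Of 12 other microfibril and elastic fibre components, 6 were higher and 1 lower in Pear1-/- bleo than in WT bleo, with a median of 0.35. Ltbp1, which stores latent TGF-beta on microfibrils, went from 1491 ± 18.9 normalized counts in WT bleo to 3435 ± 4.68 in Pear1-/- bleo (log2 1.19, SE 0.0637, adjusted p = 2.47e-11). Ltbp2, a fibrillin-binding protein, was higher after bleo in both genotypes and stood at 3881 ± 38.5 in Pear1-/- bleo against 633 ± 60.9 in Pear1-/- vehicle (log2 2.62, adjusted p = 1.25e-15). Ltbp4, which acts with fibulin-5 in elastin assembly, fell in WT from 4585 ± 188 to 835 ± 48.3 (log2 -2.44, adjusted p = 2.89e-14, or -2.47 without WT vehicle replicate 2). Emilin2 was higher in the vehicle comparison of genotypes (843 ± 57.4 against 646 ± 119 normalized counts, log2 0.38, adjusted p = 0.0339). Without WT vehicle replicate 2 its value was 0.53 (adjusted p = 5.07e-08), and the call was lost when any 1 of the other 11 libraries was left out (log2 between 0.30 and 0.42, adjusted p between 0.0512 and 0.190), with limma and with only the groups compared. Fbln7 had an interaction of -1.39 (SE 0.396, adjusted p = 0.0143), or -1.92 without WT vehicle replicate 2. Of 9 ADAMTS and ADAMTSL genes of microfibrils, 8 were lower after bleo and 1 did not pass, in each genotype. Of all genes 36.5% were lower after bleo in WT and 33.1% in Pear1-/-. Adamts17 had 292 ± 29.1 normalized counts in WT vehicle and 56.3 ± 3.83 in WT bleo (log2 -2.36, adjusted p = 7.36e-12, or -2.44 without WT vehicle replicate 2), and 55.6 ± 6.85 in Pear1-/- bleo. Adamtsl4 was the 1 gene of this list that was higher in Pear1-/- bleo than in WT bleo (log2 0.58, adjusted p = 8.82e-06), and Adamtsl2 had an interaction of 0.49 (adjusted p = 0.00466), or 0.60 without WT vehicle replicate 2.

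Of 10 elastin-degrading proteases tested, 4 were higher and 3 lower in Pear1-/- bleo than in WT bleo. Mmp12, the macrophage elastase, stood at 15835 ± 391 normalized counts in WT bleo but at 3679 ± 37.5 in Pear1-/- bleo, a 4.34-fold difference (log2 -2.12, SE 0.141, adjusted p = 5.83e-08). Ctss, a lysosomal protease of macrophages, rose in Pear1-/- from 2489 ± 67.5 to 14756 ± 214 (log2 2.57, adjusted p = 3.73e-17) and stood at 32902 ± 417 in WT bleo. Both were highest in WT bleo, as the summed leukocyte markers were, and the part of those cells was not tested. Of 9 protease inhibitors tested of 13 listed, 3 were higher and 3 lower in Pear1-/- bleo than in WT bleo. Timp1 rose from 327 ± 7.44 to 3443 ± 47.8 in Pear1-/- (log2 3.40, adjusted p = 2e-16), and Slpi, an inhibitor of neutrophil elastase, was 4.58-fold higher in Pear1-/- bleo than in WT bleo (log2 2.20, adjusted p = 0.00506), and ranged from 889.5 to 3120.2 normalized counts among the WT vehicle libraries. Of 12 integrin subunits and elastin receptor parts, 3 were higher and 5 lower in Pear1-/- bleo than in WT bleo. Itgb5 stood at 1250.0 ± 11.95 normalized counts in WT bleo but at 537 ± 24.8 in Pear1-/- bleo (log2 -1.23, adjusted p = 1.89e-10), and Lgals3 rose after bleo to 9019 ± 237 in WT and 5491 ± 111 in Pear1-/-. Itga8 was lower in the vehicle comparison of genotypes (log2 -0.65, adjusted p = 0.0438). Without WT vehicle replicate 2 its value was -0.86 (adjusted p = 2.96e-14), and the call was lost when any 1 of the other 11 libraries was left out (log2 between -0.71 and -0.54, adjusted p between 0.0558 and 0.216), with limma, with only the groups compared and with the replicate block (adjusted p = 0.0624).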

How the data were processed

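RNA of sorted cells was amplified to full-length cDNA, sequenced and aligned to GRCm38 by the authors with HISAT2. The counting program is not given in the sources used here, and the annotation only as a mouse reference transcriptome, version mm10. The authors deposited counts per gene without normalization, and a second table of normalized values (signal), which are those counts divided by a size factor per library. Groups were taken from the deposited labels, with 3 libraries each. edgeR 4.0.16 in R 4.3.3 was run on the counts of all 12 libraries (filterByExpr, TMM, robust quasi-likelihood, 1 mean per group). DESeq2 1.42.0, limma 3.58.1, other scalings, no filter, only the groups compared, a replicate block and leaving out each library were alternatives. Ratios were tested by exact permutation. Exon lengths are unions of GENCODE M21 exons, and promoter stretches are from RefSeq. A count of 3 corresponded to between 0.287 and 0.448 CPM, which covers counting error only. The edgeR script was tested on simulated data. The 10 genes, the lists and the tests were chosen with earlier results of these data known. From each pathway list and comparison, the gene named was the one that changed most among those called at an adjusted p under 0.05 whose mean log2 CPM reached 3 and whose groups did not overlap (not asked of the interaction), and nearest genes were named by the likeness measure. Leukocyte, endothelial, epithelial, smooth muscle and pericyte, mesothelial, erythroid and fibroblast marker lists were read as summed CPM, the erythroid list over the genes that passed the filter.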

Additional observations from a re-analysis of the deposited data

Results flagged for a closer look

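The response to bleo differed between Pear1-/- and WT for all 10 genes by the test of the interaction (edgeR's quasi-likelihood test, adjusted p under 0.05 over 17418 genes, of which 37.1% passed). The differences in log2 fold change, Pear1-/- minus WT, were 1.72 for Eln, 0.74 for Fbn1, 2.95 for Fbn2, 1.48 for Fbln2, 0.42 for Fbln5, 0.62 for Efemp2, 0.93 for Mfap4 and 0.63 for Mfap5. They were -0.84 for Fbln1 and -0.89 for Efemp1. Set against the Pdgfra count of the same library, with no test, the difference was 0.78 for Eln, 1.84 for Fbn2, 0.54 for Fbln2, -1.79 for Fbln1 and -1.83 for Efemp1, and its sign turned for the other 5 genes. The summed leukocyte markers were highest in WT bleo, and their part in these differences was not tested.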

How the results depend on the processing

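Of the 10 genes in 5 comparisons, 50 of 50 values kept their direction and their side of the threshold with DESeq2 size factors, with DESeq2's Wald test, with the replicate block and without robust estimation (an alternative added after seeing the data). So did 47 of 50 with upper quartile scaling and with limma, 42 of 50 without a filter on low counts, 39 of 40 with only the groups compared, and 339 of 360 when 1 library was left out. In the other comparisons the counts of the 10 genes called moved by at most 1 gene under any alternative. The counts that moved by more than 1.5 times were all in the comparison of Pear1-/- vehicle with WT vehicle (main values 0 higher, 1 lower, 1 past both criteria). Without a filter 3 genes were higher, against 2280 of the 17418 genes, and with upper quartile scaling 2 were lower, against 1436. In the main fit 340 of all genes were higher and 921 lower. With limma or with only the groups compared 0 of the 10 were lower and 0 passed both criteria. Leaving out 1 library gave between 0 and 4 higher, between 0 and 5 lower and between 0 and 1 past both criteria. Where 0 of the 10 were called, edgeR called 0 of all 17418 genes (5 vehicle libraries left out in turn, and only the groups compared), with between 2945 and 4536 genes at an unadjusted p under 0.05, and limma called 33. Without a filter Efemp2 reversed to 0.049 after bleo in WT and Mfap4 to 0.0040 between genotypes after vehicle. Upper quartile scaling moved the median of all genes by -0.15 in the comparison in WT, and no filter moved it by 0.13, and the cause of the changed calls was not tested.

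Relative to Pdgfra counts (added after seeing the data, no test), the sign turned for Fbln2 (0.52), Fbln5 (0.15), Mfap4 (1.16), Mfap5 (1.504) and Efemp2 (-0.082 to 1.65, not called) after bleo in WT, for Mfap4 (0.041, not called) between genotypes after vehicle, for Fbn1 (-0.26), Fbln5 (-0.52) and Efemp2 (-0.037) between genotypes after bleo, and in the interaction for Fbn1 (-0.20), Fbln5 (-0.52), Efemp2 (-0.31), Mfap4 (-0.010) and Mfap5 (-0.31). Leaving out 1 library took the log2 difference between genotypes of Eln to Fbn1 after vehicle to between -0.023 and 0.016, of Mfap5 to Mfap4 after bleo to between -0.047 and 0.010 and of Efemp1 to Efemp2 after vehicle to between -0.10 and 0.059.

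The replicate numbers did not pair the libraries. Deviations from the group means correlated between -0.16 and 0.10 over the 18 same-numbered pairs and between -0.15 and 0.15 over the other 36. Of the 10 genes, the replicate block called the same numbers as the fit without it (8 higher and 2 lower between the bleo groups). Over all genes it called 3741 higher and 4074 lower between the bleo groups, against 3853 and 4184 in the fit without it. Fbn2 had 10 to 16 counts per Pear1-/- vehicle library, and its coefficient of variation was 15.7% there and 56.7% in WT vehicle.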
